A study of Sus scrofa with 6 samples.

Results

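The genes described here encode subunits of the nuclear RNA polymerases I, II and III and of the mediator complex. They were chosen by symbol among the 20663 protein-coding genes of the FPKM table, which lists 29884 genes in all. The choice gave 58 genes: 5 of polymerase I, 13 of polymerase II, 10 of polymerase III and 30 of mediator. RNA was sequenced in 2 groups of 3 libraries each. The cells came from the testis of pigs (Sus scrofa) and are labelled primitive spermatogonia, the germ cells at the start of sperm production. The RA group received all-trans-retinoic acid at 2 umol/L, the vitamin A derivative that starts spermatogonial differentiation in mammals. The control group received its solvent, ethanol at 0.1%. Neither the age of the pigs nor the length of treatment is given in the sources used here. It is also not given whether a replicate is a culture, an animal or a repeat preparation, so the p-values reflect the spread among libraries, which may be technical.

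Polymerase I makes the precursor of the large ribosomal RNAs, polymerase II makes messenger RNA, and polymerase III makes transfer RNA and 5S ribosomal RNA. Each enzyme has a catalytic centre built of a largest and a second-largest subunit, small subunits common to all, and subunits of its own. Mediator links gene-bound transcription factors, nuclear receptors among them, to polymerase II, and it consists of a head, a middle, a tail, a scaffold and a detachable kinase module.

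Library totals lay between 63836470 and 87520891 reads in RA and between 62084199 and 79752197 reads in control. Every one of the 58 genes had at least 195 reads in every library and passed the filter of a mean of 0.5 FPKM (fragments per unit of gene length and of library size). Summed over 6 germ cell markers, the level was 150 to 158 FPKM in RA libraries and 180 to 187 FPKM in control libraries. The 6 Sertoli cell markers summed to 9585 to 10272 FPKM in RA and 9295 to 9776 in control, and the 5 peritubular myoid cell markers to 1319 to 1571 in RA and 445 to 509 in control. Of these markers, 3 of 6 for germ cells and 4 of 6 for Sertoli cells fell and 5 of 5 for myoid cells rose (limma). The Sertoli sum did not follow most of its markers: 5 of 6 had a log2 change below 0 and 1 above, with a median of -0.34. It was far above the germ cell sum in every library, although the cells are labelled spermatogonia. The share of each cell type was not tested. The 5 Leydig cell markers summed to 163 to 168 FPKM in RA and 108 to 115 in control, and the 6 markers of cycling cells to 50.9 to 57.3 in RA and 49.3 to 59.3 in control. The Leydig list was split: of 4 markers that passed the filter, 1 rose and 1 fell (limma). Of 5 cycling markers that passed it, 0 were called. No marker of these 5 lists was at 0 in all libraries. RA replicate 2 stood apart: its correlations with RA replicates 1 and 3 were 0.985 and 0.982, while RA replicates 1 and 3 correlated at 0.996 and control pairs at 0.994 to 0.996. These are correlations across genes, which are not independent replicates.

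More subunit genes rose than fell in RA, all by less than 2-fold except MED12L. In RA, 17 of 58 genes rose and 3 fell (limma across all genes, Benjamini-Hochberg adjusted p under 0.05, two-sided, as for all calls below). Among all 14567 genes tested, 25.9% were called, 13.9% higher and 12.0% lower. The log2 changes, on the log2(FPKM + 1) scale throughout, ran from -0.62 to 0.62 with a median of 0.17, beside a median of -0.01 over all genes. All 3 RA libraries lay above all 3 control libraries in 26 of the 58 genes, beside 23.9% of all genes, and below them in 6, beside 24.0%. Counts by complex were 4 higher and 0 lower for polymerase I, 4 and 1 for polymerase II, 2 and 0 for polymerase III, and 7 and 2 for mediator. These are bulk libraries, so fewer cells of a type and less RNA per cell cannot be told apart. The part of the shift in cell type markers in these results was not tested. Without RA replicate 2, 20 of the 20 calls were kept, in a fit that called 31.0% of all genes. The counts given below for fits without another library stand beside 18.5% and 25.5% of all genes called without RA replicates 1 and 3, and 17.4%, 15.2% and 16.1% without control replicates 1, 2 and 3. The other fits set beside these called 25.1% (edgeR on recovered reads), 30.5% (DESeq2), 27.6% (gene length correction), 31.2% (the same without RA replicate 2), 25.1% (limma without a variance trend), 20.7% (replicate block) and 11.5% (no filter on low values).

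**Figure D1:**
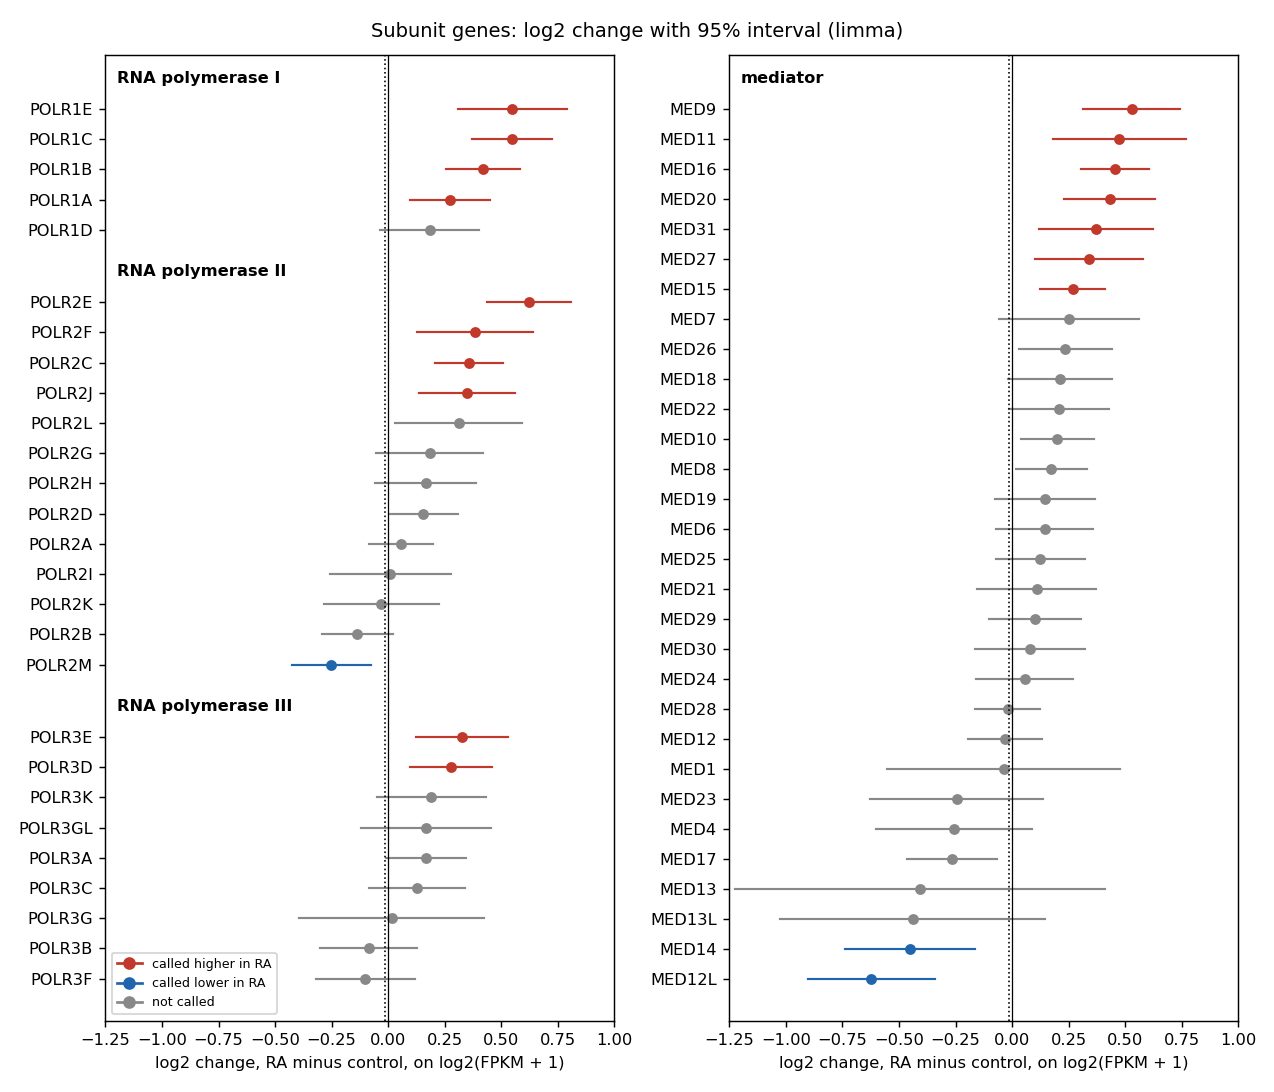
Log2 change of RA minus control for the subunit genes (points, 1 of the 58 not shown) with its 95% interval from limma (lines), in order of size within each complex; the dotted line is the median of all genes, -0.01. Polymerase I subunits lie to the right of 0, most others within 0.5 of it, and MED12L and MED14 are lowest.

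Polymerase I subunits rose in 4 of 5 cases, with a median log2 change of 0.42. POLR1E, which pairs with a second small subunit on the surface of the enzyme, was at 11.3, 14.4 and 12.5 FPKM in RA replicates 1, 2 and 3, and at 7.63, 8.63 and 8.80 in control replicates 1, 2 and 3. Its groups did not overlap, and it had the largest log2 change among the 5 polymerase I genes chosen by symbol, 0.55 ± 0.104 (SE, limma adjusted p = 0.00745). POLR1C, an assembly subunit that polymerases I and III share, was at 19.7, 21.0 and 18.1 FPKM in RA against 13.5, 12.9 and 12.8 in control, and it rose 1.5-fold by group means (limma adjusted p = 0.00198). POLR1C lies on chromosome 7 at 38511521 to 38531938 and overlaps XPO5 on the other strand by 1235 bases. XPO5 averaged 39.8 FPKM in RA and 31.1 in control and also rose (log2 change 0.35, limma adjusted p = 0.00877), and whether the counting used strand is not given, so the reads of this overlap cannot be assigned.

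The catalytic pair of polymerase I rose too. POLR1B, the second-largest subunit (chromosome 3, 43949032 to 43974283), was at 12.1, 12.8 and 12.7 FPKM in RA against 8.84, 9.14 and 9.35 in control (log2 change 0.42 ± 0.0707 SE, limma adjusted p = 0.00449). POLR1A, the largest subunit, was at 18.6, 20.6 and 19.1 FPKM in RA against 14.8, 16.3 and 16.7 in control (0.27 ± 0.0763 SE, limma adjusted p = 0.0352). All RA libraries exceeded all control libraries for both genes, but the POLR1A call depended on 5 of the 6 libraries. Its limma adjusted p was 0.0646 and 0.0608 without RA replicates 1 and 3 and 0.112, 0.0914 and 0.0689 without control replicates 1, 2 and 3, and it was 0.0368 without RA replicate 2. POLR1D, the partner of POLR1C, was at 40.8, 49.4 and 40.0 FPKM in RA against 36.6, 36.6 and 40.8 in control, with overlapping groups (limma adjusted p = 0.184, log2 change between -0.04 and 0.40, 95% interval). POLR1D shares 1562 bases of its locus on the same strand with LOC106505238, so its reads may be split between both.

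The deposited table holds 3 further polymerase I subunits under older symbols that the choice by symbol did not take, and they are named here after their values were seen. CD3EAP, the partner of POLR1E, was at 5.30, 6.52 and 5.76 FPKM in RA against 3.17, 3.92 and 3.24 in control (log2 change 0.63, limma adjusted p = 0.00571). ZNRD1, a zinc-ribbon subunit that helps cleave RNA in a stalled enzyme, was at 9.69, 8.76 and 9.18 FPKM in RA against 5.86, 5.64 and 6.26 in control (0.56, limma adjusted p = 0.00256). Neither gene's groups overlapped. TWISTNB, a stalk subunit, was at 6.92, 8.21 and 8.45 FPKM in RA against 5.14, 6.41 and 6.68 in control (0.33, limma adjusted p = 0.0802).

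**Figure D2:**
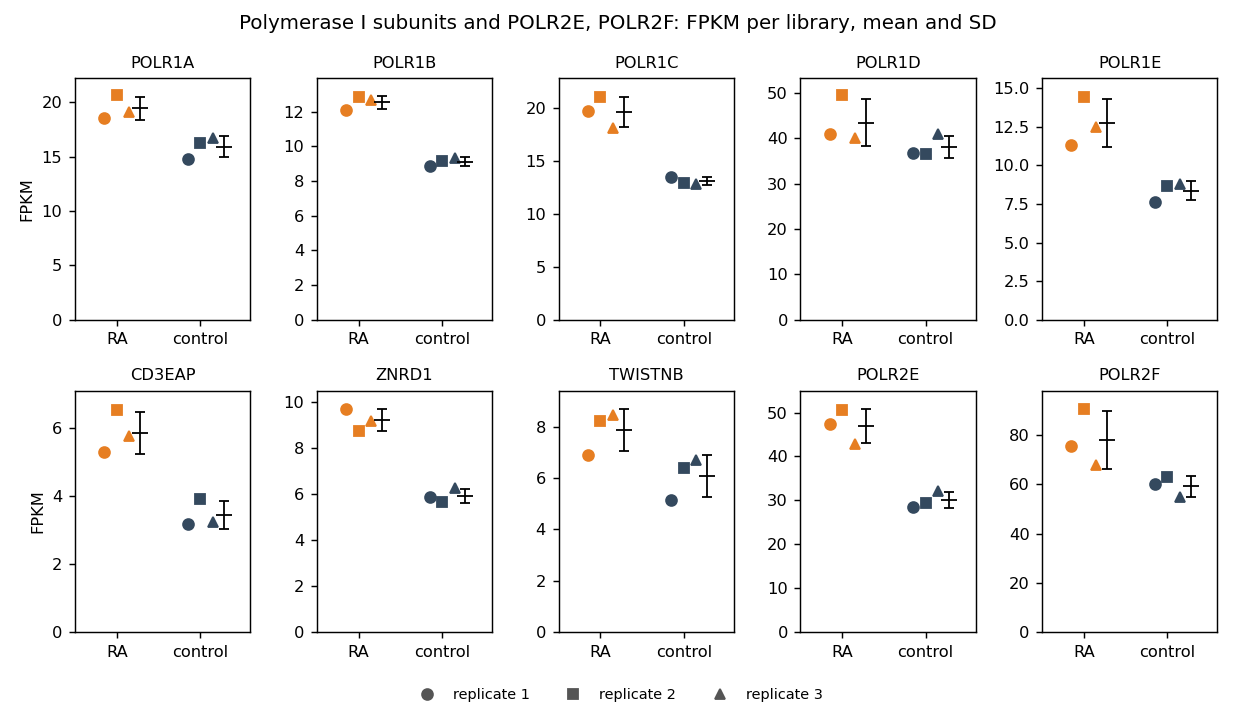
FPKM per library (replicates as circle, square and triangle) with mean and SD of 3 libraries for polymerase I subunits and for the common subunits POLR2E and POLR2F. RA libraries lie above control libraries in each panel except POLR1D, where RA replicate 3 (40.0) is just below control replicate 3 (40.8).

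Of the 5 small subunits common to all 3 polymerases, POLR2E and POLR2F rose. POLR2E, which sits at the jaw of the enzyme that grips incoming DNA (chromosome 2, 77330755 to 77341910), was at 47.3, 50.5 and 42.8 FPKM in RA against 28.5, 29.5 and 32.1 in control. This was the largest rise of the 58 genes, 1.56-fold by group means and 0.62 ± 0.0806 (SE) on the log2 scale (limma adjusted p = 0.00141). POLR2F, beside the catalytic clamp, was at 75.4, 90.5 and 67.7 FPKM in RA against 60.0, 62.8 and 54.6 in control (0.38, limma adjusted p = 0.0375). Its groups did not overlap, but its limma adjusted p was 0.0790 without RA replicate 1 and 0.0921, 0.0775 and 0.129 without control replicates 1, 2 and 3. The other three did not pass. POLR2L averaged 12.8 ± 2.15 FPKM in RA and 10.0 ± 0.845 in control (SD, n = 3 each, limma adjusted p = 0.0965), POLR2H 14.9 ± 1.74 in RA and 13.2 ± 0.811 in control (limma adjusted p = 0.229), and POLR2K 27.5 ± 4.44 in RA and 27.9 ± 1.21 in control (limma adjusted p = 0.852).

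The catalytic subunits of polymerase II itself did not pass the test. POLR2A, whose tail of heptad repeats carries the phosphorylation cycle of transcription, was the most abundant of the 58 genes, at 93.6, 103 and 103 FPKM in RA and 94.7, 96.5 and 96.8 in control. The groups overlapped, and the 95% interval of its log2 change ran from -0.08 to 0.20 (limma adjusted p = 0.509). POLR2B, the second-largest subunit, was at 37.5, 34.2 and 38.4 FPKM in RA against 39.5, 42.2 and 39.6 in control. Its RA libraries all lay below control, with an interval from -0.29 to 0.02 (limma adjusted p = 0.169).

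The assembly pair of polymerase II, POLR2C and POLR2J, rose. POLR2C was at 39.9, 44.6 and 42.2 FPKM in RA against 32.6, 33.6 and 31.8 in control (log2 change 0.36 ± 0.0647 SE, limma adjusted p = 0.00606). POLR2J, its partner, was at 40.2, 49.8 and 42.0 FPKM in RA against 36.2, 34.0 and 32.4 in control (0.35, limma adjusted p = 0.0277). Neither gene's groups overlapped. The POLR2J call was lost without control replicates 1, 2 and 3, with limma adjusted p-values of 0.0523, 0.0943 and 0.102, and with edgeR on recovered reads (adjusted p = 0.0505). POLR2D and POLR2G, which form the stalk, did not pass. POLR2D averaged 14.3 ± 0.305 FPKM in RA and 12.7 ± 0.198 in control, and POLR2G 63.6 ± 9.40 in RA and 55.6 ± 1.92 in control (SD, n = 3 each, limma adjusted p = 0.114 and 0.211). POLR2I, a subunit that bears on transcript accuracy in yeast, averaged 55.1 ± 8.12 FPKM in RA and 54.6 ± 5.38 in control (limma adjusted p = 0.963).

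POLR2M was the one polymerase II gene that fell. Its product binds polymerase II and makes the enzyme dependent on mediator, and it is not part of the core enzyme. It was at 8.36, 8.67 and 7.81 FPKM in RA against 10.2, 9.83 and 10.0 in control, without overlap (log2 change -0.25 ± 0.0760 SE, limma adjusted p = 0.0463). The call was lost without RA replicates 1 and 3 (limma adjusted p = 0.106 and 0.113) and without control replicates 1, 2 and 3 (0.127, 0.114 and 0.129), and after quantile normalization (0.0847). The count of polymerase II calls was 3 without RA replicate 1 and 2 without each control replicate in turn, against 5 with all libraries (limma).

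Among polymerase III subunits, 2 of 10 rose and 0 fell, near the 25.9% of all genes called, and the median log2 change was 0.17. The 2 that rose, POLR3D and POLR3E, form the pair that helps the enzyme open DNA and end transcripts. POLR3E was at 9.57, 9.29 and 8.52 FPKM in RA against 6.68, 7.68 and 6.88 in control (log2 change 0.33, limma adjusted p = 0.0306). POLR3D was at 27.1, 30.6 and 26.5 FPKM in RA against 23.7, 23.6 and 21.5 in control (0.28, limma adjusted p = 0.0365). RA and control did not overlap for either gene. POLR3E lost its call without RA replicate 1 (limma adjusted p = 0.101) and control replicates 1 and 3 (0.101 and 0.104), and POLR3D without RA replicate 1 (0.0716) and control replicates 1, 2 and 3 (0.0764, 0.0892 and 0.129). The count of calls was therefore 0 without RA replicate 1 or control replicate 1 or 3, and 1 without control replicate 2.

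The catalytic pair and the initiation subunits of polymerase III did not pass. POLR3A, the largest subunit, was at 7.54, 7.75 and 7.81 FPKM in RA against 6.51, 6.99 and 6.75 in control, without overlap (limma adjusted p = 0.143, and 0.0346 after a correction for gene length). POLR3B, the second-largest, was at 5.01, 5.08 and 5.09 FPKM in RA against 4.89, 5.75 and 5.70 in control (limma adjusted p = 0.508). POLR3K, a subunit needed to terminate and release transcripts, had the highest level of the polymerase III genes, at 30.2, 35.1 and 26.9 FPKM in RA and 28.0, 27.4 and 24.6 in control, with overlapping groups (limma adjusted p = 0.204). POLR3C and POLR3F had limma adjusted p-values of 0.324 and 0.445.

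POLR3G and POLR3GL are alternative versions of one subunit, of which POLR3G is known from pluripotent cells and POLR3GL from most tissues. POLR3G had the lowest level of all 58 genes, at 1.15, 0.493 and 1.38 FPKM in RA and 0.981, 0.760 and 1.13 in control. POLR3GL was at 4.15, 5.39 and 4.91 FPKM in RA and 4.70, 4.27 and 3.57 in control. Neither passed (limma adjusted p = 0.958 and 0.341). POLR3G made up 17.4 ± 7.78% of the summed FPKM of the pair in RA and 18.8 ± 4.66% in control (SD, n = 3 each). An exact two-sided permutation test of the log ratio gave p = 0.8. The low value in RA was that of replicate 2, 8.39%.

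Mediator subunits moved in both directions: 7 of 30 rose, 2 fell, and the median log2 change was 0.13. The share called was 30%, near the 25.9% of all genes. It was 23.3% higher and 6.67% lower, beside 13.9% and 12.0% of all genes. The head had 2 of 7 genes higher, the middle 2 of 9, the tail 2 of 5 and the 4 genes MED27 to MED30, which join head and tail, 1. None of the 26 genes outside the kinase module was called lower except the scaffold gene MED14 (limma). With fewer libraries the mediator count was 5 without RA replicate 1 or control replicate 1 and 4 without control replicate 2 or 3, against 9 with all.

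MED9, in the middle module that contacts polymerase II, showed the largest rise of the mediator genes. It was at 21.1, 23.9 and 18.7 FPKM in RA against 14.1, 14.5 and 14.5 in control, 1.48-fold by group means (log2 change 0.53 ± 0.0924 SE, limma adjusted p = 0.00528). MED16, a tail subunit that receives activator contacts, was at 17.9, 17.5 and 16.9 FPKM in RA against 12.2, 12.6 and 12.5 in control (0.46 ± 0.0646 SE, limma adjusted p = 0.00216). MED20, in the head, was at 9.01, 8.93 and 8.39 FPKM in RA against 6.48, 6.58 and 5.69 in control (0.43 ± 0.0866 SE, limma adjusted p = 0.00943). The libraries of RA lay clear above control in these 3 genes, and the calls of all 3 held in each of the 19 alternative fits.

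MED11, a small head subunit, was at 7.97, 11.3 and 9.59 FPKM in RA against 6.98, 5.97 and 6.81 in control (log2 change 0.47, limma adjusted p = 0.0291). MED31, a middle subunit conserved from yeast, was at 6.16, 6.90 and 5.71 FPKM in RA against 5.03, 4.03 and 4.79 in control (0.37, limma adjusted p = 0.0416). Both had no overlap, and both calls depended on single libraries. MED11 had limma adjusted p-values of 0.0582 without RA replicate 3 and 0.0639, 0.112 and 0.0771 without control replicates 1, 2 and 3. MED31 had 0.0957 without RA replicate 1 and 0.0636, 0.145 and 0.0964 without control replicates 1, 2 and 3. MED15, a tail subunit bound by several activators, and MED27, between head and tail, complete the called rises and were named after their values were seen. MED15 averaged 26.2 ± 0.790 FPKM in RA and 21.6 ± 0.591 in control (SD, n = 3 each, limma adjusted p = 0.0164), with 0.0516 without RA replicate 1 and 0.0731 and 0.0547 without control replicates 2 and 3. MED27 averaged 22.4 ± 3.16 FPKM in RA and 17.4 ± 0.847 in control (SD, n = 3 each, limma adjusted p = 0.0461), with 0.0922 without RA replicate 1 and 0.0817, 0.149 and 0.130 without control replicates 1, 2 and 3.

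MED14, the backbone that holds head, middle and tail together, fell. It was at 5.52, 4.51 and 6.53 FPKM in RA against 7.42, 8.16 and 7.94 in control, without overlap (log2 change -0.45 ± 0.123 SE, limma adjusted p = 0.0323). The call was lost without RA replicate 1 (limma adjusted p = 0.0785) and control replicates 1, 2 and 3 (0.0701, 0.116 and 0.101), and held without RA replicate 2 (0.0210). MED17, the central head subunit, was named after its values were seen: it was at 6.93, 6.92 and 6.81 FPKM in RA against 7.81, 9.23 and 8.46 in control and missed the threshold (limma adjusted p = 0.0561, and 0.0415 without RA replicate 2).

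The kinase module, a reversible brake on mediator, held the largest fall of the 58 genes. MED12L, a paralogue of the CDK8-activating subunit MED12 (chromosome 13, 91271588 to 91625867), was at 1.27, 0.763 and 1.25 FPKM in RA against 2.31, 2.22 and 2.09 in control. The group means differed 0.497-fold (log2 change -0.62 ± 0.121 SE, limma adjusted p = 0.00826), all RA libraries lay below control, and the call held in each of the 19 alternative fits. The size of the change depended on the setting: MED12L is the longest of the 58 genes (13587 bases), and its log2 change was -0.40 after a correction for gene length. It was -0.98 with a pseudocount of 0.1 and -1.01 with edgeR on recovered reads. MED12 itself was at 16.8, 16.3 and 17.4 FPKM in RA against 17.9, 16.2 and 17.5 in control (limma adjusted p = 0.766, 95% interval from -0.19 to 0.13). MED12L made up 6.08 ± 1.40% of the pair's summed FPKM in RA and 11.4 ± 0.679% in control (SD, n = 3 each). The groups of this share did not overlap, and an exact two-sided permutation test of the log ratio gave p = 0.1, the smallest that 3 against 3 libraries allow.

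The kinases of this module, which are not among the 58 genes, showed a like split between paralogues. CDK19 was at 2.15, 1.05 and 2.17 FPKM in RA against 4.08, 5.36 and 4.80 in control and fell (log2 change -1.06 ± 0.185 SE, limma adjusted p = 0.00518). CDK8 was at 14.3, 9.15 and 14.6 FPKM in RA and 12.9, 12.2 and 13.7 in control (limma adjusted p = 0.832), and their cyclin CCNC at 4.66, 3.59 and 5.59 in RA and 4.25, 4.55 and 4.52 in control (limma adjusted p = 0.889). CDK19 made up 12.1 ± 1.56% of the pair's summed FPKM in RA and 26.8 ± 3.33% in control (SD, n = 3 each, exact two-sided permutation p = 0.1 for the log ratio, again the smallest possible). In both pairs the less abundant paralogue was the one that fell, and it was also the longer one. MED12L has 13587 bases against 6968 for MED12, and CDK19 has 6016 against 2661 for CDK8. The part of length in these shares was not tested. The remaining pair of the module kept its share. MED13L made up 59.8 ± 6.06% of its summed FPKM with MED13 in RA and 59.5 ± 1.92% in control (SD, n = 3 each).

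**Figure D3:**
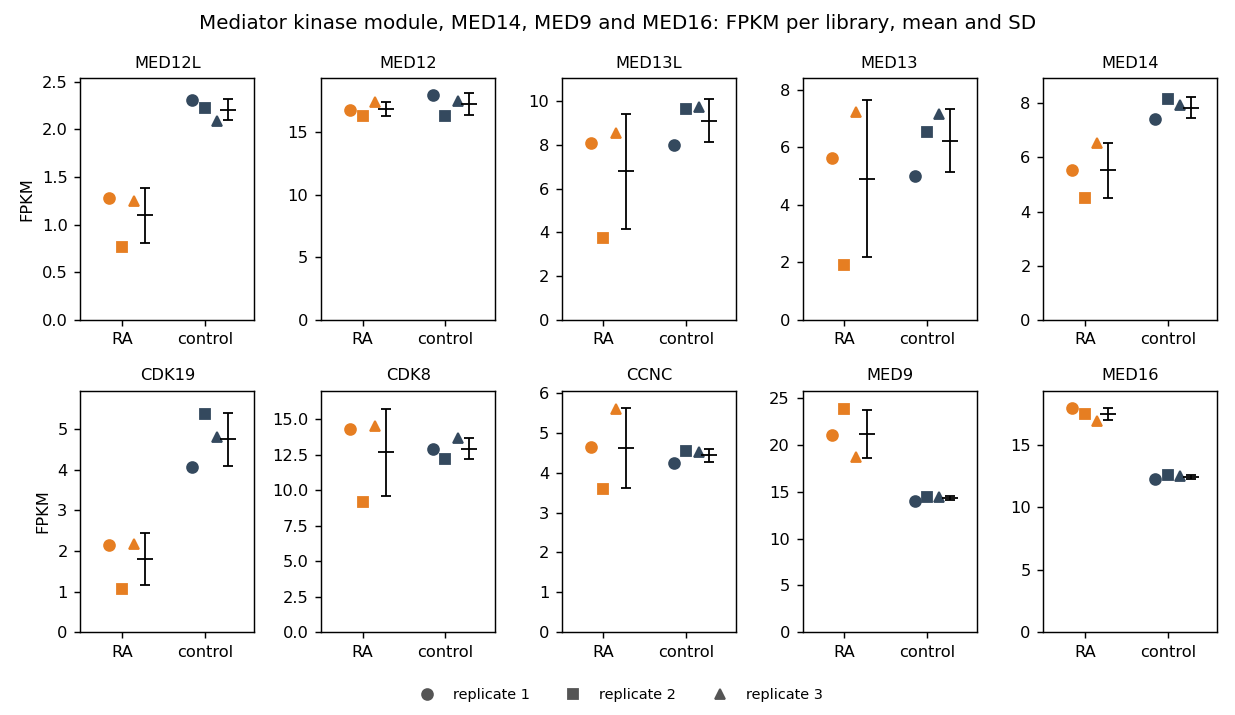
FPKM per library (replicates as circle, square and triangle) with mean and SD of 3 libraries for the kinase module, its kinases and cyclin, the scaffold MED14 and the called rises MED9 and MED16. MED12L, CDK19 and MED14 lie below control in all RA libraries, MED9 and MED16 above, and RA replicate 2 (square) is the lowest RA library in every panel but MED9 and MED16.

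MED13 and MED13L, which tether the kinase module to the core, were dominated by RA replicate 2. MED13 was at 5.62, 1.91 and 7.22 FPKM in RA and 5.01, 6.53 and 7.17 in control (log2 change -0.41, limma adjusted p = 0.412), and the change was 0.04 without RA replicate 2. MED13L was at 8.08, 3.74 and 8.52 FPKM in RA and 7.97, 9.63 and 9.72 in control (-0.44, limma adjusted p = 0.228), and the change was -0.12 without that library. MED1, the subunit through which nuclear receptors recruit mediator, was named after its values were seen: it was at 9.91, 5.33 and 10.5 FPKM in RA and 7.37, 8.99 and 9.27 in control (limma adjusted p = 0.915, with a change of -0.04, and 0.24 without RA replicate 2). None of these 3 genes passed in limma with or without that library, while MED1 passed when gene length was corrected and that library was left out (limma adjusted p = 0.0153, an alternative chosen after seeing the data).

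The low values of RA replicate 2 followed gene length. Its log2 level minus the mean of RA replicates 1 and 3 was negative in 13 of the 58 genes, beside 6588 of all 14567 genes tested. The median of this difference was 0.10 over the 58 genes and 0.03 over all genes tested. In most subunit genes RA replicate 2 was thus the higher library, with 2 of 28 polymerase and 11 of 30 mediator genes below 0. The difference was lowest in MED13 (-1.34, length 12239 bases), MED13L (-0.97, 11012 bases) and MED1 (-0.82, 8333 bases). Across the 58 genes it correlated with length at Spearman's rho = -0.71, and at -0.47 across all genes tested. Both describe genes of shared libraries and carry no test. MED4 was an exception to the order, at 20.9, 13.4 and 17.4 FPKM in RA replicates 1, 2 and 3 with a length of only 1355 bases. RA minus control itself correlated with length at rho = -0.41 over the 58 genes and -0.32 over all genes tested. Without RA replicate 2 these values were -0.18 and -0.20. For mediator genes rho was -0.57, and -0.36 without that library, and for polymerase genes -0.23 and 0.02. Of the 20 calls, 17 held after a lowess correction of each library for gene length, and POLR2M (limma adjusted p = 0.0951), MED27 (0.0581) and MED31 (0.0734) did not. The correction made 3 of the kept changes smaller by over 1.5 times: POLR2F to 0.24 (log2, against 0.38 uncorrected), POLR2J to 0.20 (against 0.35) and MED12L to -0.40 (against -0.62). With RA replicate 2 left out as well, POLR2F, POLR2J and MED11 had limma adjusted p-values of 0.0743, 0.0650 and 0.0547 and log2 changes of 0.19, 0.17 and 0.29, and MED14 kept its call at -0.26.

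Subunit genes of one length class can be set beside all genes of that class. Among genes over 5000 bases, 6.50% of all genes were called higher and 15.6% lower. Of the 5 polymerase genes in this class, POLR1A and POLR1B rose and 0 fell, while of 8 mediator genes 0 rose and MED12L and MED14 fell. Among genes over 2000 and up to 5000 bases, 6 of 25 subunit genes rose and 1 fell, beside 13.7% and 12.8% of all genes of that class. Among genes of at most 2000 bases, 9 of 20 subunit genes rose and 0 fell, beside 21.5% and 7.11% of all genes of that class. The median log2 change of these 20 genes was 0.23, and 0.17 without RA replicate 2. For all genes of that class it was 0.11 and 0.06. Whether the share of mediator or polymerase calls differs from that of all genes of equal length was not tested.

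**Figure D4:**
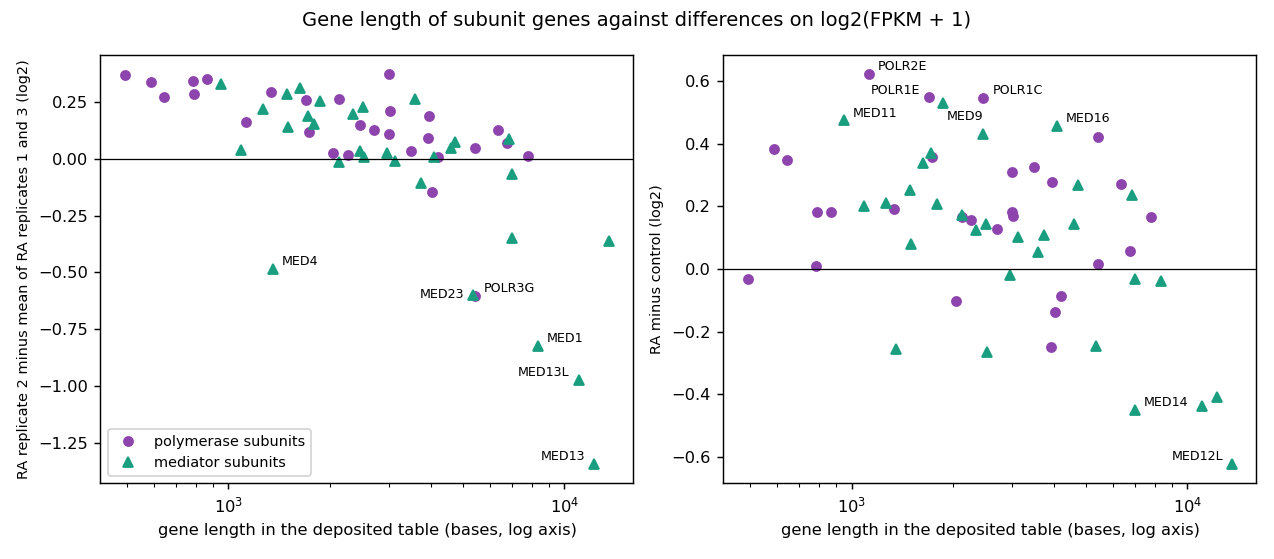
Gene length in bases (log axis) against RA replicate 2 minus the mean of RA replicates 1 and 3 (left) and against RA minus control (right), both on the log2(FPKM + 1) scale, for 28 polymerase and 30 mediator genes. In the left panel several mediator genes beyond 5000 bases lie far below 0, down to -1.34 in MED13, and the right panel holds MED12L and MED14 at its lower end.

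Levels per length differed widely within each complex. Mean FPKM over 6 libraries ran from 10.5 (POLR1E) to 40.7 (POLR1D) in polymerase I, from 9.16 (POLR2M) to 98.0 (POLR2A) in polymerase II, from 0.984 (POLR3G) to 28.7 (POLR3K) in polymerase III and from 1.59 (MED29) to 40.1 (MED10) in mediator. Median levels were 38.5 FPKM for polymerase II genes against 16.3 for polymerase I, 7.23 for polymerase III and 8.33 for mediator. MED10, a middle subunit, was at 45.1, 43.7 and 40.0 FPKM in RA against 39.0, 36.8 and 35.7 in control (limma adjusted p = 0.0706, and 0.0463 without RA replicate 3). MED29 was at 1.74, 1.67 and 1.64 FPKM in RA against 1.54, 1.59 and 1.37 in control (limma adjusted p = 0.408). Summed over its genes, polymerase I was at 108 ± 9.17 FPKM in RA and 84.4 ± 3.62 in control, and polymerase II at 544 ± 47.6 in RA and 477 ± 3.47 in control (SD, n = 3 each). Polymerase III summed to 108 ± 7.77 FPKM in RA and 94.6 ± 4.36 in control, and mediator to 408 ± 7.97 in RA and 373 ± 0.917 in control (SD, n = 3 each). In all 4 sums each RA library lay above each control library. The same held for FPKM summed over all genes, at 448474 to 479862 in RA libraries and 423114 to 440063 in control libraries. Whether the 4 sums rose beyond this general shift was not tested.

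The authors' deposited table of called protein-coding genes lists 20 of the 58 genes, 18 higher and 2 lower in RA. It lists 20.3% of all protein-coding genes, 10.9% as higher and 9.42% as lower. That base is 20663 genes, of which 13674 passed the filter of 0.5 FPKM, while all 58 subunit genes passed it. The share of all protein-coding genes is thus lower than it would be among expressed genes, and the comparison is not on a like base. Of the 20 limma calls 19 are among them. The authors' deposited table adds MED26 (FDR 0.0305), which had a limma adjusted p of 0.0856, and does not list POLR2M.

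Partner factors of the enzymes are given by list, beside the same 25.9% of all genes called. Of 31 general transcription factors of polymerase II, 2 rose and 1 fell, with a median log2 change of 0.03. ERCC2, a helicase of TFIIH, averaged 11.6 ± 0.467 FPKM in RA and 8.62 ± 0.224 in control (SD, n = 3 each, limma adjusted p = 0.00698). GTF2H4, also in TFIIH, was at 7.38 ± 0.229 in RA and 5.10 ± 0.621 in control (limma adjusted p = 0.0124, and 0.0533 without control replicate 2). CCNH, the cyclin of the TFIIH kinase, was at 1.96 ± 0.166 in RA and 2.79 ± 0.371 in control (limma adjusted p = 0.0465). The CCNH call held in 1 of the 6 fits without a library, that without control replicate 1 (limma adjusted p = 0.0499), and the other five gave 0.0535 to 0.156, while the correction for gene length gave 0.236. TAF2, a subunit of TFIID, was at 11.2 ± 3.59 in RA and 16.0 ± 1.0 in control (limma adjusted p = 0.101).

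Of 23 elongation and pausing factors, 1 rose and 1 fell, and they are relatives. ELL, which speeds elongation by polymerase II, was at 38.3, 39.4 and 36.7 FPKM in RA against 18.4, 18.4 and 18.4 in control, a 2.07-fold rise (limma adjusted p = 3.8e-05). ELL2 was at 5.84, 3.58 and 6.51 FPKM in RA against 7.83, 10.9 and 10.6 in control (log2 change -0.79, limma adjusted p = 0.0244), with 0.0997 and 0.0901 without control replicates 2 and 3. The groups of both genes lay apart, in opposite directions. TCEA1, which rescues stalled polymerase II, and NELFE, of the pausing complex NELF, had limma adjusted p-values of 0.0533 and 0.0544. Of 10 assembly factors and phosphatases of the polymerase II tail, 1 rose: CTDSP2, a phosphatase of that tail, averaged 96.3 ± 3.24 FPKM in RA and 80.2 ± 2.67 in control (SD, n = 3 each, limma adjusted p = 0.0146). Its limma adjusted p was 0.0622 without RA replicate 1 and 0.0604 and 0.0548 without control replicates 1 and 3, and 0.0712 after the correction for gene length. RPAP2 (limma adjusted p = 0.0519), CTDSP1 (0.0543) and RPAP1 (0.0665) did not pass.

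Of 9 factors of polymerase I, NOLC1, a nucleolar phosphoprotein, rose and 0 fell. It averaged 42.3 ± 0.894 FPKM in RA and 32.1 ± 0.722 in control (SD, n = 3 each, limma adjusted p = 0.00247). UBTF, which coats active ribosomal RNA genes, was at 20.4 ± 1.10 in RA and 18.5 ± 0.882 in control (limma adjusted p = 0.194), and TAF1C and TAF1A of the promoter factor SL1 had limma adjusted p-values of 0.0540 and 0.124. Of 16 factors of polymerase III, GTF3A, the activator of 5S ribosomal RNA genes, rose and 0 fell. GTF3A averaged 13.3 ± 0.826 FPKM in RA and 8.93 ± 1.03 in control (SD, n = 3 each, limma adjusted p = 0.0065). MAF1, the repressor of polymerase III, was at 71.2 ± 8.56 in RA and 59.9 ± 2.59 in control (limma adjusted p = 0.0891), and GTF3C2 and SNAPC1 had limma adjusted p-values of 0.134 and 0.142. The growth regulator MYC averaged 91.8 ± 1.24 FPKM in RA and 97.4 ± 2.60 in control (limma adjusted p = 0.275).

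In mitochondria, the separate polymerase POLRMT was at 20.1, 23.5 and 20.3 FPKM in RA against 15.5, 15.8 and 15.7 in control and rose (log2 change 0.42, limma adjusted p = 0.00725). Its initiation factor TFB2M averaged 4.34 ± 0.315 FPKM in RA and 3.26 ± 0.0499 in control (SD, n = 3 each, limma adjusted p = 0.0347). The TFB2M call held in 1 of the 6 fits without a library, that without RA replicate 2 (limma adjusted p = 0.0117), and the other five gave 0.0748 to 0.115, while the correction for gene length gave 0.0908. TFAM was at 7.54, 3.25 and 7.66 FPKM in RA and 7.33, 7.45 and 8.45 in control (limma adjusted p = 0.328), with RA replicate 2 again the low library.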

How the data were processed

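The 6 libraries were grouped by their titles. The authors deposited an FPKM value per gene and library, with gene length, type and position, per the file headers. For genes they called, the authors deposited counts, a log2 ratio (RA over control), its p-value and FDR, per the file headers. No source used here gives the aligner, counting tool, strand setting, build or statistical test. Start and end of 58 of 58 genes equal those in RefSeq's table of Sscrofa11.1.

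Genes whose mean reached 0.5 FPKM were tested with limma 3.58.1 (R 4.3.3) on log2(FPKM + 1), a pseudocount of 1 that understates changes of low genes, with a trend in the variance and one term, the group. Undoing the FPKM scaling with each library's total returned whole reads (within 0.05) in 99.8% to 99.9% of non-zero values. Those reads went into edgeR 4.0.16 and DESeq2 1.42.0 as alternatives, without 42 genes that were not whole. Alternatives also covered pseudocounts, filters, scaling, limma settings, a replicate block, gene length and each library left out. Pairs of replicates had a mean chi-square per gene of 18.9 to 138, so none was counted as a copy. Counts were simulated at 1 dispersion of 0.01 for 14538 genes, with 100 genes changed 2-fold and 100 changed 1.3-fold. There limma recovered 100% of 2-fold and 23% of 1.3-fold changes of RA against control. Of its calls at adjusted p under 0.05, 8.2% were false, more than that threshold stands for.

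The members and lists were chosen with earlier results of these data known. Values per library are given for the 5 largest called rises and falls, the highest and lowest level of each complex, and the catalytic and paralogue pairs. Of each list of partner factors, the 4 genes of smallest p-value are named, some with means or p-values only. Other genes named were chosen after their values were seen. Mediator modules follow common usage. For 1 gene of polymerase III, counted among the 10, no value is reported here.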

Additional observations from a re-analysis of the deposited data

How the results depend on the processing

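Of 20 called subunit genes, 9 were called in each of the 19 alternatives (POLR1B, POLR1C, POLR1E, POLR2C, POLR2E, MED9, MED12L, MED16 and MED20), 17 with edgeR and 20 with DESeq2. No named gene changed direction as a called value. Called subunit genes numbered 3 to 4 (polymerase I), 2 to 5 (polymerase II), 0 to 2 (polymerase III) and 4 to 10 (mediator) with 1 library left out, and all genes called 2207 to 4514 (2207 and 2344 when control replicate 2 or 3 was left out, against 3769). With no filter on low values the counts were 2 for polymerase II, 1 for polymerase III and 5 for mediator, over 26469 genes tested. Polymerase III had 1 call without the limma trend and 3 with gene length correction, with RA replicate 2 or without it (the second added after seeing the data). With the replicate number as a block, 3 of polymerase I, 4 of polymerase II, 1 of polymerase III, 4 of mediator and 3015 of all genes were called. Deviations of same-numbered libraries from their group means correlated at -0.21, -0.09 and 0.34 for numbers 1, 2 and 3. Those of libraries with unlike numbers correlated at -0.37 to 0.37. With deviations taken from means of 3 libraries, these values show no pairing by number but cannot exclude one. The cause of these moves was not tested. Changes of 1.3-fold, the size of many calls here, were recovered in 23% of simulated cases for RA against control. In that simulation far fewer genes changed than the 25.9% called in the real fit, which makes the adjusted p-values stricter. The simulation also gave all libraries 1 dispersion, with none standing apart as RA replicate 2 did. Pairs of that library with RA replicates 1 and 3 had a mean chi-square per gene of 124 and 138. The 23% recovered and the 8.2% of false calls therefore do not give the rates of the real fit, in either direction. Uncalled genes with changes of 1.3-fold are still not shown to be unchanged. No scaling moved the median of all genes by over 0.03.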

Other observations

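Some subunit genes overlap neighbours in the deposited coordinates. MED22 shares 198 bases with the ribosomal protein gene RPL7A on the other strand, which was at 1486 to 1840 FPKM in RA libraries and 1226 to 1258 in control libraries, while MED22 was at 9.11 to 10.7 FPKM in RA libraries and 7.83 to 9.29 in control libraries. POLR2B shares 279 bases with IGFBP7 on the other strand, which rose (62.4 to 75.4 FPKM in RA libraries, 45.4 to 49.0 in control libraries, limma adjusted p = 0.00241). MED29, the mediator gene of lowest level, shares 1647 bases with PAF1 on the other strand, at 32.3 to 33.4 FPKM in RA and 30.6 to 34.4 in control. Their part in the values of these genes was not tested.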
